A study of Mus musculus with 13 samples.

Results

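The adipocyte lineage genes followed here were Adipoq, Lpl, Fabp4, Cfd, Adig, Pparg, Cebpa, Plin2, Plin4 and Scd1, chosen by symbol from a table of 33432 named genes. All 10 were present, and all 10 were among the 13118 genes tested. RNA-seq had been run on mesenchymal stromal cells (MSCs), the connective tissue cells of the marrow from which bone and fat cells arise, sorted from marrow and compact bone of C57BL/6 mice. There were 3 healthy, 6 pre-leukemic and 4 recovered libraries. The labels name control mice, pre-leukemic mice and pre-leukemic mice given MSCs, and the recovered libraries are taken to be from the last. The sources used here do not state the genotype behind the pre-leukemia, the age of the mice, the surface markers of the sort, or which animal each library came from. The p-values therefore measure the spread between these samples, which may be technical.

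A fat cell is built by a short chain of factors. C/EBP-beta and C/EBP-delta, the products of Cebpb and Cebpd, act early and turn on Pparg and Cebpa, which then keep each other on and switch on genes for taking up, binding, making and storing lipid. In the bone marrow, stromal cells that hold no visible fat also make several of these transcripts, adiponectin among them, so their presence does not by itself show mature fat cells.

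Values are FPKM, fragments per kilobase of transcript scaled to sequencing depth, as made by the authors, and can be compared between genes of different length. Healthy libraries 1 and 3 differed by little more than sampling noise. The chi-square per gene was 1.2 over 212 genes with about 100 to 1000 reads, against at least 21.9 for the other 23 pairs of libraries within a group. Both were averaged and counted as 1 sample, leaving 2 healthy samples, and means ± SD are over 2 healthy, 6 pre-leukemic and 4 recovered samples. Depth was read from the steps between low values and is approximate: 3 reads on a transcript of 1 kb corresponded to 0.493 to 0.727 FPKM in the pre-leukemic group, 0.950 to 1.15 in the healthy and 1.05 to 1.93 in the recovered group. Such a floor accounts for counting error alone. Of all FPKM in a pre-leukemic library, 54.9 to 80.5% fell to immunoglobulin genes, against at most 0.134% elsewhere. Ptprc (CD45), which defines blood cells, was at 80.7 to 155 FPKM in pre-leukemic libraries and at most 16.4 elsewhere. The stromal genes Lepr (the leptin receptor) and Cxcl12 reached at most 7.39 and 124 FPKM in pre-leukemic libraries and were at least at 18.6 and 369 in all others. The pre-leukemic libraries thus held the markers of their stromal label at low levels beside those of blood cells. Tbp, a factor every cell uses, was listed at 0 in healthy 2 and recovered 1, so a 0 is reported as a listed value and no mean is given for a group that holds one.

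Changes are differences of mean log2(FPKM + 1) ± SE from limma, with Benjamini-Hochberg adjusted p over all genes tested. They understate changes of genes with low values, and where a group is listed at 0 throughout their size depends on the added 1. A gene rose or fell where limma's adjusted p was under 0.05. The 3 comparisons share their groups and are not independent of each other.

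In pre-leukemic libraries 6 of the 10 genes were lower than in healthy ones (Adipoq, Lpl, Fabp4, Cfd, Adig and Scd1) and 2 were higher (Pparg and Plin2). Over all genes tested, 13.1% were lower and 14.2% higher. Without healthy 2, which leaves 1 healthy sample, fewer of the 10 and fewer of all genes were called. On the TPM scale 7 of the 10 were lower and 0 higher. On that scale 4200 of the 13118 genes tested were lower and 791 higher. The median change of the 10 genes was -3.0 on the log2 scale, or -2.45 over the 7 that were above 0 in both groups, and that of all genes was 0.20. In bulk samples fewer stromal cells and less of these transcripts per cell cannot be told apart. In recovered against pre-leukemic libraries 6 genes were higher (Adipoq, Lpl, Fabp4, Cebpa, Plin4 and Scd1) and 1, Pparg, was lower, where 14.8% of all genes were higher and 25.1% lower. Of the 10, 4 passed the filter on low values only through the group where they were high, and so had to differ: Cfd and Adig through healthy, Pparg through pre-leukemic and Plin4 through recovered libraries. The other 6 gave 4 lower and 1 higher in pre-leukemic against healthy, and 5 higher and 0 lower in recovered against pre-leukemic. The median change was 1.81 over the 10 genes, or 2.38 over the 7 above 0 in both groups, against -0.41 for all genes. Between recovered and healthy libraries limma called 0 of the 10, where 0.518% of all genes were higher and 1.99% lower. At an unadjusted p under 0.05, 2 of the 10 (Plin2 and Plin4) were higher and 1 (Adig) was lower. The share of all genes at that threshold was not worked out. Plin4 and Adig had passed the filter only through the recovered and the healthy libraries, so these counts are no result about the 10.

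Each library's own level was used to draw the plot of single values. Adipoq, Lpl and Fabp4 are low in pre-leukemic libraries and spread widely in recovered ones, whereas Pparg is highest in pre-leukemic libraries.

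**Figure D1:**
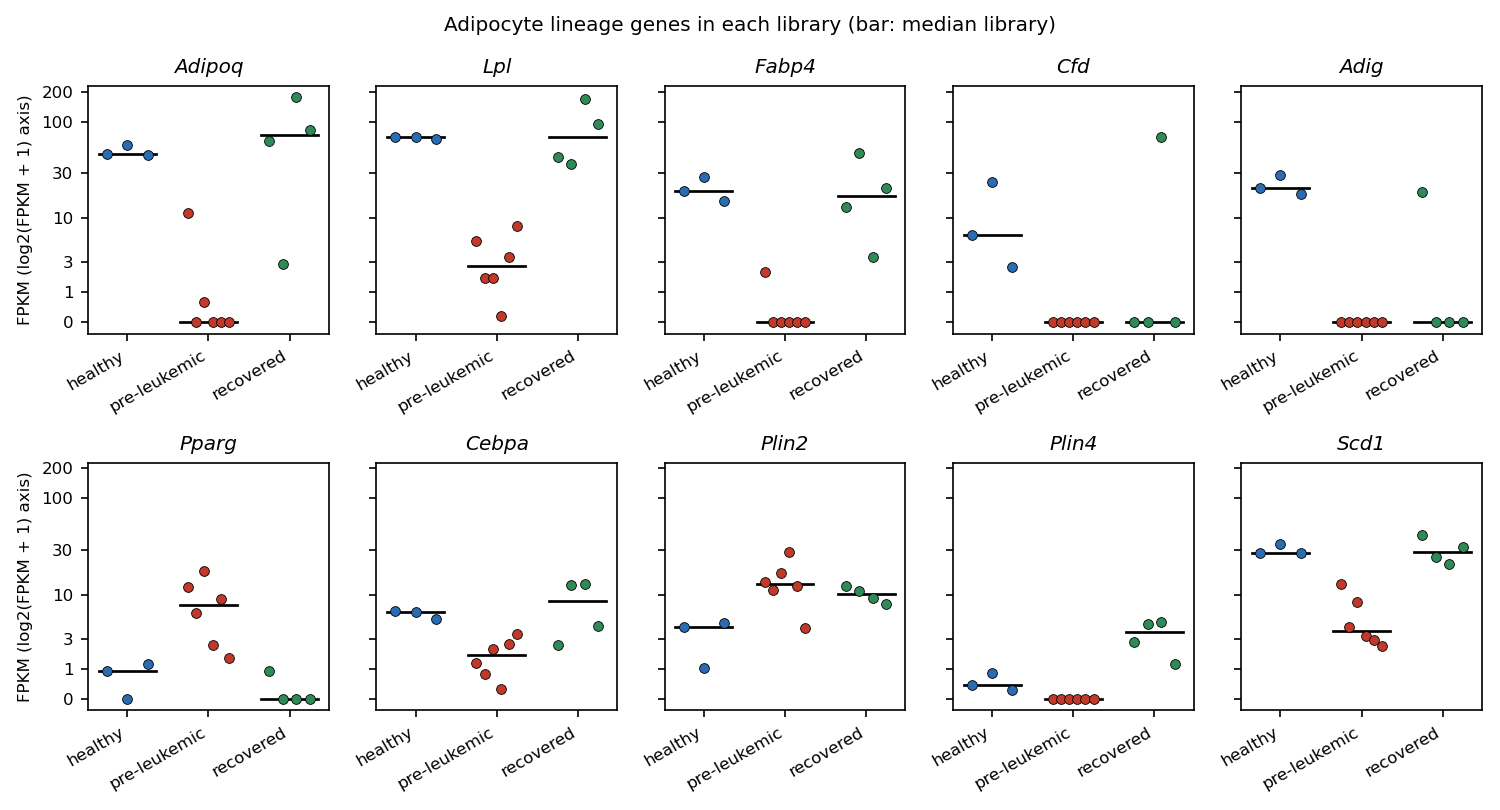
Level of each of the 10 adipocyte lineage genes (y axis, FPKM on a log2(FPKM + 1) scale) in 3 healthy, 6 pre-leukemic and 4 recovered libraries, with 1 dot per library and a bar at the median library. Lpl lies between 67.3 and 70.7 in healthy libraries and at most at 8.23 in pre-leukemic ones, and Cfd and Adig are above 0 in 1 recovered library each.

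Pparg encodes the nuclear receptor PPAR-gamma, which is both needed and enough for fat cell formation and is also made by some macrophages. The gene lies at chr6:115360951-115490399 (GRCm38). It was listed at 0.906, 0 and 1.21 FPKM in healthy libraries 1, 2 and 3. Pre-leukemic libraries ran from 1.56 through a median of 7.57 to 17.9, and recovered libraries gave 0.888, 0, 0 and 0. Every pre-leukemic library was above every healthy and every recovered one. Pparg rose in pre-leukemic libraries by 2.35 ± 0.71 (limma adjusted p = 0.0239) and fell by 2.65 ± 0.56 from pre-leukemic to recovered ones (limma adjusted p = 0.00194). Without healthy 2, which leaves 1 healthy sample assumed to vary like the other groups, limma's adjusted p for the rise was 0.266, and with libraries scaled to the same sum (the TPM scale) it was 0.137. Pparg reached 1 FPKM in 1 library outside the pre-leukemic group, so it entered the test through that group and had to differ. With no filter on low values limma's adjusted p was 0.046 for the rise and 0.00555 for the fall.

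Cebpa encodes C/EBP-alpha, the partner of PPAR-gamma in mature fat cells, which also works in myeloid progenitors. It lies at chr7:35119293-35121928. Levels were 6.49, 6.44 and 5.27 FPKM in healthy libraries, 0.266 to 3.45 with a median of 1.72 in pre-leukemic ones, and 2.46, 12.7, 13.2 and 4.30 in recovered ones. Healthy libraries lay above all pre-leukemic ones, while recovered 1 fell inside the pre-leukemic range. The mean was 6.16 ± 0.40 FPKM in healthy (n = 2), 1.75 ± 1.20 in pre-leukemic (n = 6) and 8.15 ± 5.56 in recovered samples (n = 4). Its difference of -1.51 ± 0.66 between pre-leukemic and healthy did not pass (limma adjusted p = 0.105), although it did on the TPM scale (0.00506), with quantile normalization (0.0488), with only these groups in the fit (0.043) and with healthy 1 and 3 kept apart (0.0436). Cebpa rose from pre-leukemic to recovered by 1.62 ± 0.52 (limma adjusted p = 0.0231), a call lost without pre-leukemic 2 (0.0501), recovered 2 (0.068) or recovered 3 (0.0633).

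RefSeq promoter windows (GRCm38.p6, 250 bases before to 50 after a start site) were found for 7 of the 10 genes, with 3 windows for Pparg. Lpl, Fabp4 and Scd1 had no window. They were searched on both strands for AGGTCA, the half-site read by PPAR-gamma with its partner RXR and by other nuclear receptors, for TTGCNNAA (C/EBP), CCCNNGGG (EBF factors) and TATAAA, a core promoter box. Among 32851 windows of the same length 16.3% held the first, 10.8% the second, 13.7% the third and 13.6% the fourth. Shown are the 250 bases before a start for Pparg and Plin2, the genes that rose in pre-leukemic libraries, and for Adig, which was listed at 0 in all of them. Each runs 5′ to 3′ on the gene's own strand, with motif letters in capitals. RefSeq places some starts elsewhere than the GENCODE positions given for the genes.

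Pparg, chr6:115360894-115361143, plus strand: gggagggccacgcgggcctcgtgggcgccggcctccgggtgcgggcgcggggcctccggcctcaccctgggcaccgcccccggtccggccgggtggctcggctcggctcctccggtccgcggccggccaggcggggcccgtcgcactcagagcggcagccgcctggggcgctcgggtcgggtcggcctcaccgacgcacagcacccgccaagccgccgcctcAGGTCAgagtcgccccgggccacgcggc
Pparg, chr6:115421816-115422065, plus strand: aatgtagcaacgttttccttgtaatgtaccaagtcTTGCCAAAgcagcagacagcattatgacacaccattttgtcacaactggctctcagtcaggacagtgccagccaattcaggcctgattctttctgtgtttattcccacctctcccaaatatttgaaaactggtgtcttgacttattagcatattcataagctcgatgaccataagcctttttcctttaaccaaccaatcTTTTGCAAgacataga
Plin2, chr4:86670060-86670309, minus strand: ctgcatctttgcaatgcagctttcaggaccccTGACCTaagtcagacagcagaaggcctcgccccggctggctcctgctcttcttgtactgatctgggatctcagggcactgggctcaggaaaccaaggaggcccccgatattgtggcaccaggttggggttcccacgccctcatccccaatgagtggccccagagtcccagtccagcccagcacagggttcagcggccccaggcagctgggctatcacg
Adig, chr2:158502362-158502611, plus strand: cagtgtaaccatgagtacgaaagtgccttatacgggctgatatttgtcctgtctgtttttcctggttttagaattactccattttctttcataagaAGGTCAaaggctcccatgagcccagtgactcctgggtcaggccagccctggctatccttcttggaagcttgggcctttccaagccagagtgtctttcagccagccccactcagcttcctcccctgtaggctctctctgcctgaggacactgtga

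The capitals mark AGGTCA from base -28 in the first Pparg window, C/EBP letters from -215 and -16 in the second shown, the half-site on the opposite strand (TGACCT) from -218 in Plin2, and AGGTCA from -154 in Adig. Another Pparg window, starting at 115362099, held AGGTCA from -9 and that core box on the opposite strand from -29. Cebpa had TATAAA from -30 and Plin4 the EBF letters from -236, whereas the windows of Adipoq and Cfd held no match to these letters. A match describes the letters and not a bound site.

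Adipoq encodes adiponectin, the hormone that fat cells release into the blood. It lies at chr16:23146536-23158028. In healthy libraries it was at 47.3, 57.9 and 45.8 FPKM. Among pre-leukemic libraries 4 were listed at 0, with 11.5 in pre-leukemic 1 and 0.59 in pre-leukemic 3. Recovered libraries gave 64.0, 2.79, 176 and 81.9. All pre-leukemic libraries were below all healthy ones, 3 of 4 recovered libraries were above every healthy one, and recovered 2 lay within the pre-leukemic range. Adipoq fell by 5.01 ± 1.23 on the log2 scale in pre-leukemic libraries (limma adjusted p = 0.00725) and rose by 4.73 ± 0.97 from pre-leukemic to recovered (limma adjusted p = 0.00148). The recovered mean of 81.3 ± 71.9 FPKM (n = 4) dropped to 49.6 without recovered 3, and the healthy mean was 52.3 ± 8.05 (n = 2). Without healthy 2 limma's adjusted p for the fall was 0.0818. Between recovered and healthy the difference was -0.28, with a 95% interval of -3.07 to 2.51, and it was 0.90 without recovered 2.

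Cfd encodes adipsin (complement factor D), a protease that fat cells secrete, and lies at chr10:79890853-79892655. It stood at 6.47, 24.4 and 2.54 FPKM in healthy libraries (mean 14.5 ± 14.1, n = 2, and 4.5 without healthy 2). All 6 pre-leukemic libraries and 3 recovered ones were listed at 0, and recovered 3 was at 69.7, the highest value of all. Cfd fell in pre-leukemic libraries (limma adjusted p = 0.0486, change -3.56 ± 1.26), and this call was lost under 12 of 22 other settings (0.0504 to 0.402). Leaving out healthy 1, healthy 2, recovered 1 or any 1 of the pre-leukemic libraries was enough, and healthy 2 gave the 0.402. In recovered against pre-leukemic it did not pass (limma adjusted p = 0.232), and without recovered 3 all recovered and pre-leukemic libraries were at 0. Recovered against healthy missed the threshold (0.498) but passed without recovered 3 (limma adjusted p = 0.00413). In that fit only healthy samples still varied, and the SE was 0.53 against 1.33 with all libraries.

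Lpl encodes lipoprotein lipase, which frees fatty acids from blood lipoproteins for uptake. It lies at chr8:68880491-68907448 and was the highest of the 10 in healthy libraries, at 70.0, 70.7 and 67.3 FPKM. Pre-leukemic libraries ran from 0.168 through a median of 2.62 to 8.23, and recovered ones gave 43.5, 37.4, 169 and 95.4. The pre-leukemic libraries overlapped with neither other group. Mean Lpl was 69.7 ± 1.43 FPKM in healthy (n = 2), 3.47 ± 2.94 in pre-leukemic (n = 6) and 86.2 ± 60.7 in recovered samples (n = 4), 20.1-fold lower in pre-leukemic than in healthy and 24.8-fold higher in recovered than in pre-leukemic. The fall was 4.27 ± 0.74 on the log2 scale (limma adjusted p = 0.000629) and the rise 4.32 ± 0.58 (limma adjusted p = 4.59e-05), and both were called under all 22 other settings. Recovered 1 and 2 lay below and recovered 3 and 4 above the healthy libraries, with a difference of 0.04 from healthy and a 95% interval of -1.63 to 1.71.

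Fabp4 encodes the fatty acid carrier of fat cells, which capillary endothelium also makes. It lies at chr3:10204088-10208576. Healthy libraries were at 19.4, 27.1 and 15.4 FPKM, and recovered ones at 13.4, 47.6, 3.49 and 21.2. Pre-leukemic 1 was at 2.2 and the other 5 were listed at 0. Again no pre-leukemic library reached a healthy or recovered one, and recovered libraries lay on both sides of the healthy range. Fabp4 fell by 4.23 ± 0.77 in pre-leukemic libraries (limma adjusted p = 0.000943) and rose by 3.74 ± 0.61 from there to recovered (limma adjusted p = 0.000225), under all 22 other settings too. Against healthy, recovered differed by -0.48 (95% interval -2.23 to 1.26). The mean was 22.2 ± 6.83 FPKM in healthy (n = 2) and 21.4 ± 18.9 in recovered samples (n = 4), the latter 12.7 without recovered 2. Recovered 3, highest for Adipoq, Lpl and Cfd, was lowest for Fabp4, and recovered 2, lowest for Adipoq and Lpl, was highest for it.

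Adig encodes adipogenin, a small membrane protein of fat cells, at chr2:158502612-158508198. The healthy libraries gave 21.0, 28.4 and 18.1 FPKM, and recovered 1 gave 19.3. The other 3 recovered libraries and all 6 pre-leukemic ones were listed at 0. Recovered 1 lay inside the healthy range. Adig fell in pre-leukemic libraries (limma adjusted p = 0.00154, change -4.62 ± 0.90) and was called under all 22 other settings, among them with no filter on low values (0.00526). The step from pre-leukemic to recovered did not pass (limma adjusted p = 0.238). Recovered against healthy also missed (limma adjusted p = 0.071, change -3.53 ± 0.95). It passed with healthy 1 and 3 kept apart (limma adjusted p = 0.0225) and without recovered 1 (7.24e-05). In the latter fit all recovered and pre-leukemic values were 0, so only healthy samples still varied and the SE was 0.38.

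Plin2 encodes perilipin 2, which coats lipid droplets in many cell types, macrophages among them. It lies at chr4:86648386-86670060. Healthy libraries were at 4.22, 1.03 and 4.70 FPKM, pre-leukemic ones at 4.15 to 28.1 with a median of 13.1, and recovered ones at 12.4, 11, 9.2 and 7.97. Pre-leukemic 6 lay among the healthy values and the other 5 above them, and all recovered libraries were above all healthy ones. Mean Plin2 was 2.75 ± 2.42 FPKM in healthy (n = 2, 4.46 without healthy 2), 14.5 ± 7.95 in pre-leukemic (n = 6) and 10.2 ± 1.96 in recovered samples (n = 4). It rose by 2.04 ± 0.61 in pre-leukemic libraries (limma adjusted p = 0.0235), a call lost without healthy 2 (0.33) and on the TPM scale (0.425). Recovered differed from pre-leukemic by -0.31 (95% interval -1.35 to 0.73, limma adjusted p = 0.638), which turned to 1.0 on the TPM scale. Against healthy it was higher by 1.72 (0.33 to 3.12), which did not pass after adjustment (limma adjusted p = 0.195).

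Plin4 encodes perilipin 4, a coat protein of small new droplets that is abundant in fat cells. It lies at chr17:56100591-56109803. Healthy libraries held 0.366, 0.825 and 0.234 FPKM, all pre-leukemic ones were listed at 0, and recovered ones held 2.69, 4.56, 4.81 and 1.22. No group overlapped with another, and recovered was the highest. Plin4 passed the filter on low values only through the recovered libraries, and a gene that enters in this way had to differ. Its rise from pre-leukemic to recovered was 2.01 ± 0.33 (limma adjusted p = 0.000271, and 0.000199 with no filter). In pre-leukemic against healthy it did not pass (limma adjusted p = 0.295), but did with 0.1 in place of 1 added to FPKM (0.0318) and with only these groups in the fit (0.0406). Recovered Plin4 was 3.32 ± 1.69 FPKM (n = 4) against 0.562 ± 0.371 in healthy samples (n = 2), 5.91-fold higher (healthy 0.30 without healthy 2). This missed the threshold (limma adjusted p = 0.131) and passed without recovered 4 (0.0452) and with healthy 1 and 3 kept apart (0.0323).

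Scd1 encodes stearoyl-CoA desaturase 1, which makes the monounsaturated fatty acids stored in triglyceride. It lies at chr19:44394455-44407879. Levels were 27.6, 33.9 and 27.8 FPKM in healthy libraries, 2.37 to 13.2 with a median of 3.74 in pre-leukemic ones and 42.6, 25.1, 21.4 and 31.5 in recovered ones. Healthy and recovered libraries mixed, and every pre-leukemic library was below both. Means were 30.8 ± 4.36 (n = 2), 5.69 ± 4.23 (n = 6) and 30.1 ± 9.32 FPKM (n = 4), so that the pre-leukemic mean was 5.41-fold below the healthy one. Scd1 fell by 2.45 ± 0.57 (limma adjusted p = 0.00557) and rose by 2.38 ± 0.45 from pre-leukemic to recovered (limma adjusted p = 0.00085). Without healthy 2 the fall missed the threshold (limma adjusted p = 0.0804). Between recovered and healthy the difference was -0.07, with a 95% interval of -1.37 to 1.23.

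The plot of fitted changes sets the 3 comparisons side by side. Intervals between recovered and healthy were wide, as those of Adipoq, Lpl and Fabp4 show, so a miss there does not show equal levels.

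**Figure D2:**
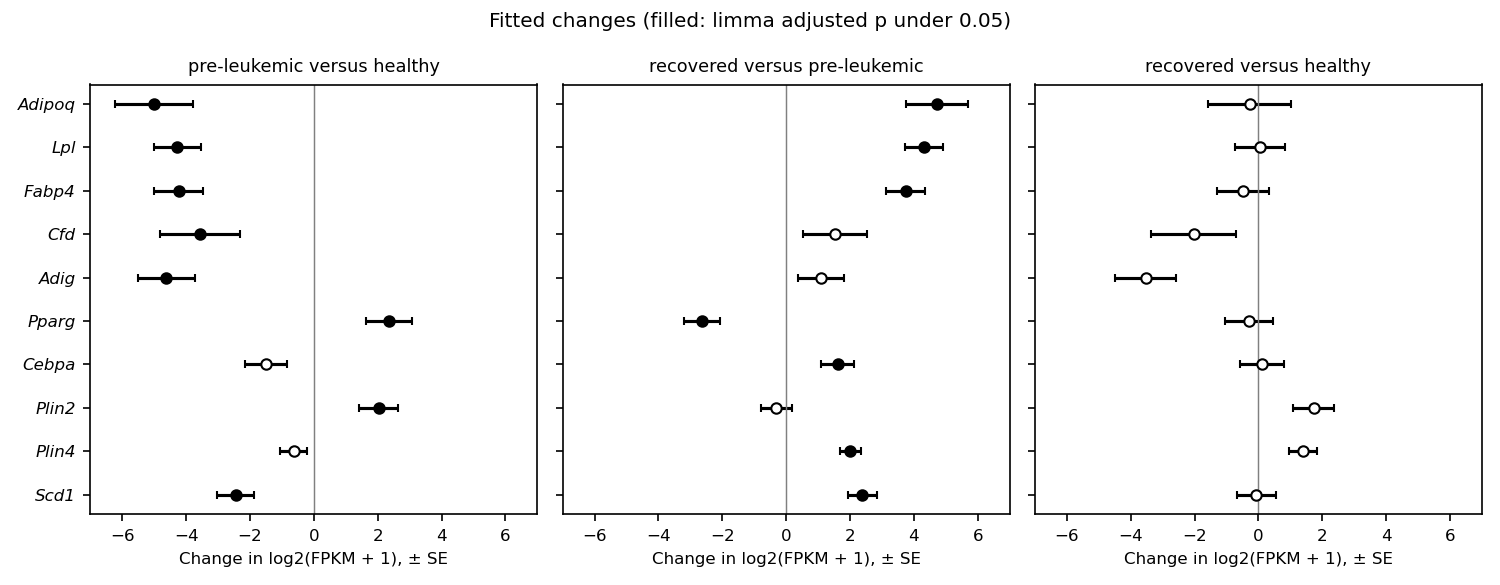
Fitted change of each of the 10 genes in log2(FPKM + 1) (x axis, ± SE) in the 3 comparisons, with filled dots where limma's adjusted p was under 0.05. The first panel has 6 filled dots on the left and 2 on the right, the second 6 on the right and 1 on the left, and the third has 0.

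Several of the 10 have close relatives in the table, and these did not always share their pattern. Healthy libraries held 50.1, 64.6 and 53.1 FPKM of Cebpb, pre-leukemic ones 3.99 to 8.98, and recovered ones 143, 285, 586 and 348. It fell by 3.13 ± 0.48 in pre-leukemic libraries (limma adjusted p = 0.000259) and rose by 5.50 ± 0.38 from pre-leukemic to recovered (1.11e-07). Every recovered library was above every healthy one, and the difference of 2.37 ± 0.51 was called (limma adjusted p = 0.0261) unless healthy 2 was left out (0.279) or only these groups were fitted (0.205). Cebpd, at 187 to 280 FPKM in healthy libraries, fell by 4.28 ± 0.65 (limma adjusted p = 0.000222) and rose by 3.69 ± 0.51 (6.01e-05), and reached 119 to 177 FPKM in recovered libraries. Both early factors were above Cebpa in every library, the pre-leukemic ones included.

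Plin3, the perilipin of nearly all cell types, went the other way from Plin2: it fell by 1.64 ± 0.42 in pre-leukemic libraries (limma adjusted p = 0.00908, and 0.0539 without healthy 2), from 39.5 to 54.5 FPKM in healthy to 9.15 to 23.3 in pre-leukemic. It rose by 1.95 ± 0.33 to 42.1 to 65.7 FPKM in recovered libraries (limma adjusted p = 0.000326). Scd2, the desaturase of brain and other tissues, was at 24.6 to 29.2 FPKM in healthy and 23.7 to 35.7 in pre-leukemic libraries (difference 0.11 ± 0.45, limma adjusted p = 0.881), while Scd1 fell. From pre-leukemic to recovered it fell by 1.35 ± 0.35 (limma adjusted p = 0.00755), a change that turned to 0.033 on the TPM scale. Fabp5, a fatty acid carrier of skin and immune cells, had 11.1 to 11.8 FPKM in the healthy group and 1.48 to 20.1 in the pre-leukemic one, where Fabp4 was listed at 0 in 5. From pre-leukemic to recovered it fell by 2.87 ± 0.56 (limma adjusted p = 0.001) to at most 1.25 FPKM, while Fabp4 rose. It was also lower in recovered than in healthy libraries, by -3.08 ± 0.75 (limma adjusted p = 0.0454), a call kept under 7 of 22 other settings.

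**Figure D3:**
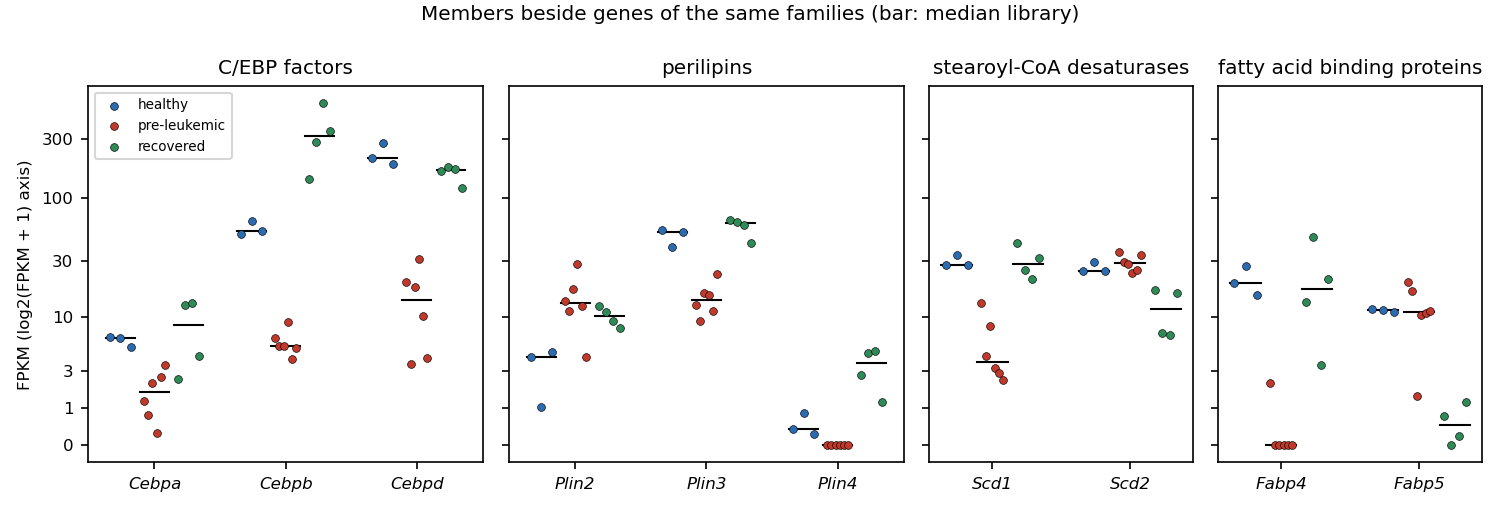
Level (y axis, FPKM on a log2(FPKM + 1) scale) of Cebpa, Plin2, Plin4, Scd1 and Fabp4 beside relatives of the same families, with 1 dot per library and a bar at the median library of each group. Cebpb reaches 586 in recovered libraries against at most 13.2 for Cebpa, and Fabp5 is at most 1.25 in recovered libraries where Fabp4 reaches 47.6.

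Other genes of the lineage were taken as lists from textbook fat cell biology. Genes of mature fat cells were looked at first. Of 15 droplet and lipolysis genes, Plin1, Plin5, Cidea, Cidec and Fitm1, which serve lipid storage in droplets, were listed at 0 in every library, as were Lep and Retn (leptin and resistin), Thrsp, Ppara and the brown fat genes Ucp1, Cox8b and Elovl3. Other genes of the same kind were above 0: in healthy libraries Pnpla2 (a triglyceride lipase) was at 11.8 to 15 FPKM, Dgat2 (a triglyceride maker) at 10.9 to 13.5 and Slc2a4 (the insulin-sensitive glucose carrier) at up to 2.84, and Lipe (hormone-sensitive lipase) reached 4.77 in pre-leukemic ones. The lists therefore gave a mixed picture, and a listed 0 does not show absence.

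Of 10 adipokines and secreted lipase regulators in the table, 7 were tested. In pre-leukemic against healthy libraries 5 of these were lower, where 13.1% of all genes were lower. Rbp4, the carrier of retinol, was at 50.6 to 57 FPKM in healthy libraries and listed at 0 in 5 of 6 pre-leukemic ones, and it fell by 5.38 ± 0.73 (limma adjusted p = 9.62e-05). Angptl4, an inhibitor of lipoprotein lipase, fell by 4.13 ± 0.59 (limma adjusted p = 0.000136), from 57.6 ± 1.73 FPKM (n = 2) to 2.80 ± 1.86 (n = 6), so that it was low in the libraries where Lpl was low. Rarres2 (chemerin) and Itih5 also fell (limma adjusted p = 0.00344 and 0.0147), though Itih5 was not called without healthy 2 (change -1.95). Nnat fell too (limma adjusted p = 0.0319, and 0.0979 with quantile normalization) and was at most 1.81 FPKM. It was listed at 0 in all pre-leukemic libraries, so it passed the filter only through the groups where it was high and had to differ. With no filter limma's adjusted p for Nnat was 0.00953. Rbp4, Angptl4, Rarres2 and Itih5 rose from pre-leukemic to recovered by 1.82 to 5.26 on the log2 scale, and the other 3 tested did not pass. Over all genes tested, 14.8% rose in that comparison. The median change of the list was -1.85 and then 1.82.

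Among 9 tested genes of lipid droplets and lipolysis, 1 was higher and 2 lower in pre-leukemic libraries, with a median change of 0.06. With 14.2% of all genes higher and 13.1% lower, these counts are near the background and are no result about the list. Bscl2 (seipin), which shapes new droplets, rose by 2.10 ± 0.41 like Plin2 (limma adjusted p = 0.00158), and Plin3 and the monoglyceride lipase gene Mgll fell. On the TPM scale neither the rise of Bscl2 (limma adjusted p = 0.463) nor its later fall (0.377) was called, nor was the fall of Mgll without healthy 2 (0.295) or pre-leukemic 2 (0.0513). In recovered against pre-leukemic libraries Plin3, Mgll and Abhd5, the activator of triglyceride lipase, were higher, and Bscl2 and G0s2, the inhibitor of that lipase, were lower. Over all genes tested, 14.8% were higher and 25.1% lower in that comparison. The G0s2 call (limma adjusted p = 0.0361) was lost under 11 of 22 other settings, among them on the TPM scale (change -0.84, 0.425) and without recovered 2 (0.117), recovered 3 (0.111) or pre-leukemic 1, 2, 3 or 6. Mgll lost its rise without recovered 1 (0.0577) or 4 (0.0603), and Abhd5 without recovered 2 (0.0841) or 3 (0.0673).

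Fatty acid uptake and activation had 9 tested genes, of which 1 was higher and 1 lower in pre-leukemic libraries, also near the background. Lmf1, which matures lipoprotein lipase in the endoplasmic reticulum, rose in pre-leukemic libraries by 2.67 ± 0.61 (limma adjusted p = 0.00457), with 0.907 to 3.13 FPKM in healthy libraries and 5.18 to 24.7 here, while Lpl fell. Without healthy 2 its adjusted p was 0.107 and on the TPM scale 0.149. Vldlr, a lipoprotein receptor, fell (limma adjusted p = 0.043, lost under 8 of 22 other settings, with 0.237 without healthy 2 and 0.0664 to 0.0742 without pre-leukemic 2, 4, 5 or 6). From pre-leukemic to recovered Lmf1 and Fabp5 were lower and Vldlr higher (limma adjusted p = 0.0336, lost without recovered 1 or 2 or pre-leukemic 2, 4, 5 or 6, at up to 0.112). The Lmf1 call was lost on the TPM scale (0.134). The other 7 and 6 did not pass. From pre-leukemic to recovered 14.8% of all genes were higher and 25.1% lower, so the calls of this list were near the background there too.

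Of 13 tested genes of fatty acid and triglyceride synthesis, limma called 0 between pre-leukemic and healthy libraries. Over all genes tested, 14.2% were higher and 13.1% lower in that comparison. At an unadjusted p under 0.05, 1 of the 13 was lower, a threshold at which the share of all genes was not worked out. The median change of the list was 0.07. From pre-leukemic to recovered Scd2 and Acss2, an acetyl-CoA maker, were lower (limma adjusted p = 0.00755 and 0.0127), though Acss2 was not on the TPM scale (0.219) or with quantile normalization (0.0662). With 25.1% of all genes lower in that comparison, 2 of 13 is no result about the list.

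Adipogenic regulators other than Pparg and Cebpa had 15 tested genes. Of these 6 were lower in pre-leukemic libraries, with a median change of -1.34, and 9 did not pass. Over all genes tested, 13.1% were lower. Klf15, among the 15, reached 1 FPKM in fewer than 3 libraries outside the healthy group. It therefore passed the filter only through that group and had to differ. Besides Cebpb and Cebpd, Ebf1, an early commitment factor also of B cells, fell by 3.76 ± 0.52 (limma adjusted p = 0.000103), and Klf5, which cooperates with C/EBP factors, fell by 2.87 ± 0.68 (0.00621, and 0.059 without healthy 2). Pparg rose in the libraries in which Cebpb, Cebpd and Ebf1 fell. In recovered against pre-leukemic libraries 6 regulators were higher, with Ebf1 up by 3.53 ± 0.41 (limma adjusted p = 1.17e-05), and Zfp467 alone of the 15 was lower, as Pparg was: it fell by 3.37 ± 0.64 (0.000787). Over all genes tested, 14.8% were higher and 25.1% lower in that comparison.

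A list meant for genes that hold back fat cell formation had 8 tested. It also held Sfrp1, an antagonist of Wnt signals, which is not a restrainer in that sense. Gata3 and Gata2 were higher in pre-leukemic libraries by 5.94 ± 0.50 and 2.51 ± 0.49 (limma adjusted p = 1.78e-06 and 0.00151). Nr2f2 and Sfrp1 were lower by -4.68 ± 0.54 and -2.21 ± 0.58 (limma adjusted p = 2.49e-05 and 0.0112), though Sfrp1 was not called without healthy 2 (change -2.06). Over all genes tested, 14.2% were higher and 13.1% lower. Gata2 was listed at 0 in all healthy and recovered libraries and Gata3 was at most 0.628 FPKM there. Both GATA genes therefore passed the filter only through the pre-leukemic libraries and had to differ. With no filter limma's adjusted p was 4.99e-06 for Gata3 and 0.00232 for Gata2. Both factors also act in blood cells. In recovered against pre-leukemic libraries 3 genes of this list, Nr2f2 and Sfrp1 among them, were higher. Another 4, both GATA genes among them, were lower, where 14.8% of all genes were higher and 25.1% lower.

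Insulin response and caveola genes had 8 tested members, of which 3 were lower in pre-leukemic libraries: Ptrf and Cav1, which build the membrane pits abundant in fat cells, by -3.71 ± 0.54 and -4.09 ± 0.62 (limma adjusted p = 0.000162 and 0.000231), and Irs2 (0.0466, lost under 9 of 21 other settings, among them without healthy 2 at 0.176, without recovered 1 or 4, and without pre-leukemic 2, 4, 5 or 6). Over all genes tested, 13.1% were lower in pre-leukemic libraries. Ptrf and Cav1 rose from pre-leukemic to recovered by 5.36 ± 0.43 and 4.55 ± 0.49, and Irs1, listed at 0 in all pre-leukemic libraries, rose too (limma adjusted p = 0.000299, and 0.000466 with no filter), though it had passed the filter only through the recovered libraries. Of the thermogenic list, Dio2, which activates thyroid hormone and also works in bone cells, fell and rose (limma adjusted p = 0.00461 and 0.000466, the first 0.0655 without healthy 2).

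**Figure D4:**
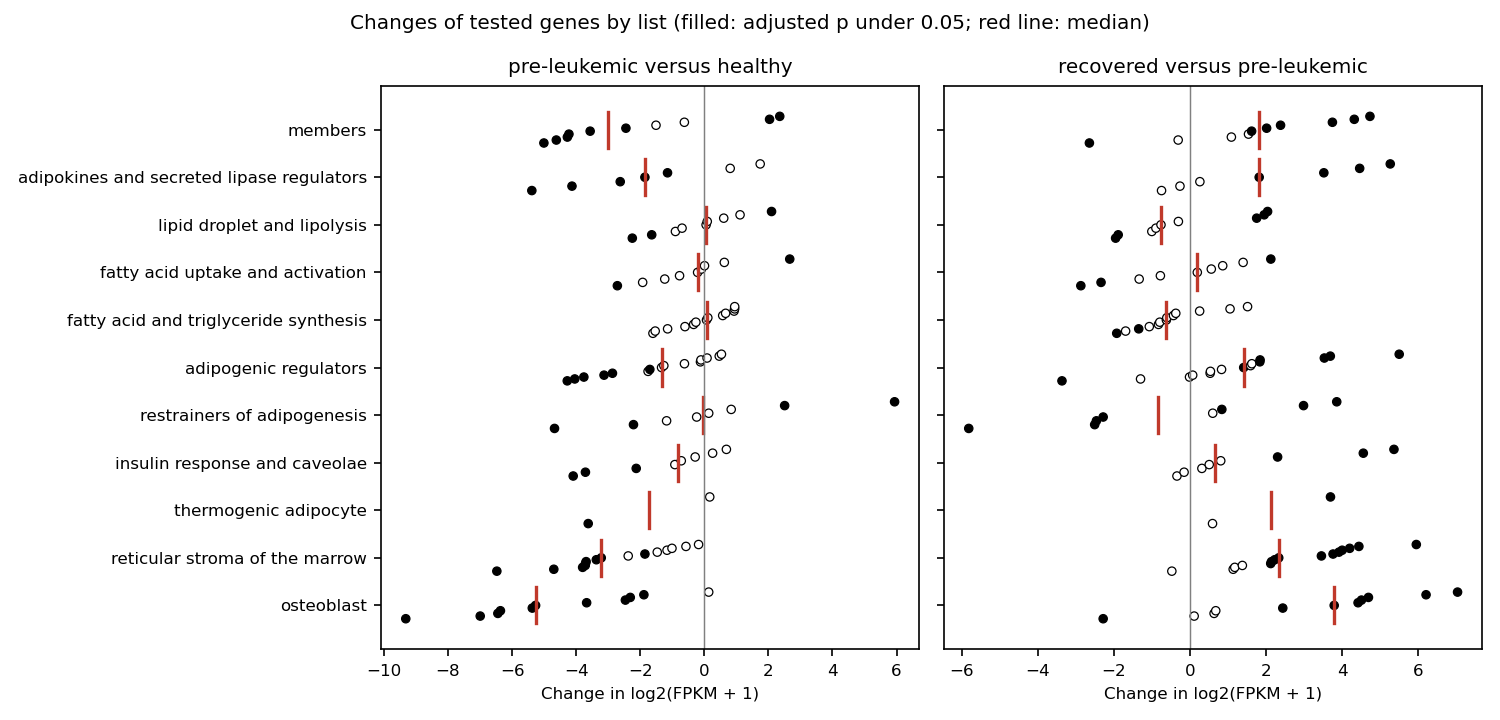
Fitted change in log2(FPKM + 1) (x axis) of every tested gene of 11 lists, 1 dot per gene, filled where limma's adjusted p was under 0.05, with a red line at the list's median, in pre-leukemic versus healthy (left) and recovered versus pre-leukemic (right). The 10 adipocyte lineage genes have a median of -3.0 on the left and 1.81 on the right, while fatty acid and triglyceride synthesis lies at 0.07 and -0.62.

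Markers of other cells moved with the groups. Per library the 10 genes together held 188.4 to 250.7 FPKM (healthy), 19.8 to 59.3 (pre-leukemic) or 141 to 467 (recovered), and sums are given in this order of groups. Markers of the marrow's reticular stroma, all 16 present, summed to 12065 to 16179, 105 to 802 and 8698 to 14684. Most of the healthy and recovered sums was Mgp, at 11350 to 15310 and 7391 to 13430 FPKM. Of 15 tested, 9 fell in pre-leukemic libraries and 11 rose from there to recovered. In pre-leukemic libraries osteoblast markers fell in 10 of 11 cases, with a median change of -5.27, where 13.1% of all genes were lower. Runx2 was the exception, since its pre-leukemic values (15.24 to 49.32 FPKM) overlapped with the healthy ones (13.07 to 33.3). Dmp1 and Phex reached 1 FPKM in fewer than 3 libraries outside the healthy group. Both therefore passed the filter only through that group and had to differ. From pre-leukemic to recovered 7 osteoblast markers rose and only Runx2 fell, to between 2.91 and 4.88 FPKM. In that comparison 14.8% of all genes were higher and 25.1% lower.

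Pan-leukocyte markers, 10 of 10 higher in pre-leukemic libraries, summed to 120 to 162, 2657 to 3341 and 75.2 to 238 FPKM. Plasma cell markers, 8 of 8 higher, summed to 144 to 180, 46600 to 72831 and 78.0 to 164. Most of the plasma cell sum in pre-leukemic libraries was Igj, at 44480 to 69250 FPKM. Over all genes tested, 14.2% were higher there and 13.1% lower. Some markers, among them Plek, Tnfrsf17, Derl3, Prdm1 and the monocyte genes Ccr2 and Mpeg1, reached 1 FPKM in no healthy or recovered library. These passed the filter only through the pre-leukemic libraries and had to differ. Neutrophil markers summed to 99.9 to 144, 3144 to 15573 and 22.8 to 646. Pparg, Cebpa and Plin2 are also made by myeloid cells. Monocyte and macrophage markers summed to 66.3 to 75.0, 3418 to 5175 and 47.8 to 164, with 6 of 10 tested higher and 1 lower in pre-leukemic than in healthy libraries. In pre-leukemic libraries Ctss was at 524 to 850 FPKM and Ly6c2 at 2135 to 3728, while Csf1r was at most 2.2 and Emr1 at most 0.25. Endothelial markers, of interest for Fabp4, summed to 3.6 to 13, 9.19 to 58.7 and 0.748 to 161. The 161 was that of recovered 3 and came mostly from Emcn, at 140 FPKM, and Egfl7, at 19.2. In that library Cdh5 was at 0.312 and Pecam1 at 0.211, and Kdr and Tie1 were listed at 0. The part of these cells in the values of the 10 genes was not tested.

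**Figure D5:**
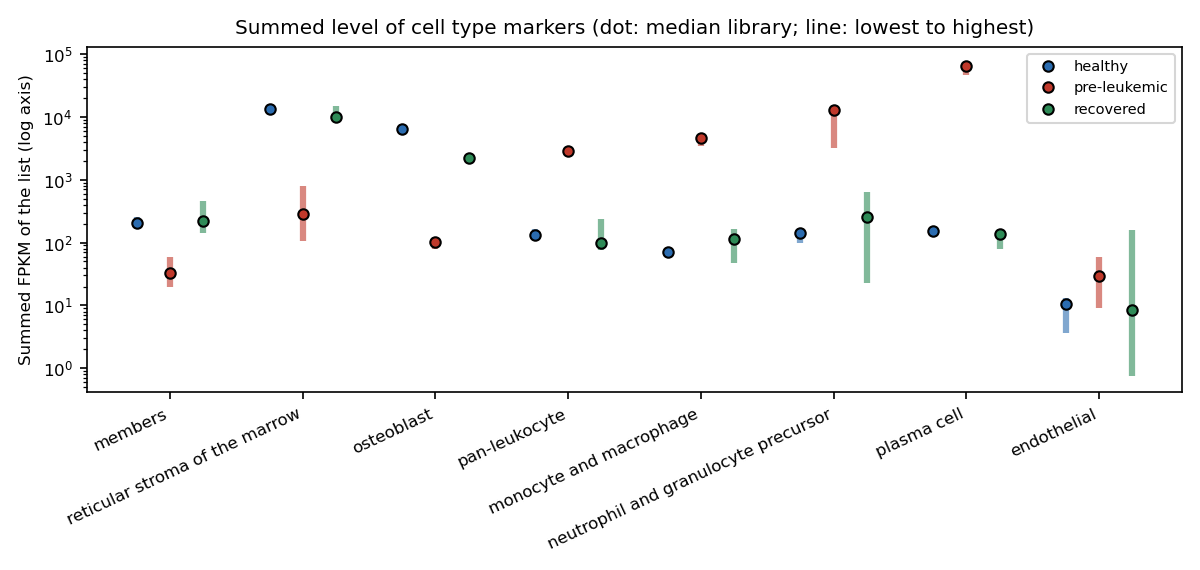
Summed FPKM of marker lists (log y axis) in healthy, pre-leukemic and recovered libraries, with a dot at the median library and a line from the lowest to the highest. The sum of the 10 genes has its lowest median, 32.3, in pre-leukemic libraries, as do reticular stroma and osteoblast markers, while leukocyte and plasma cell markers have their highest medians there. Single genes, such as Mgp for reticular stroma and Igj for plasma cells, make up most of some sums.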

How the data were processed

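The deposited table holds FPKM values that the authors made. Tools listed in the submitters' processing notes are TopHat, bcl2fastq, Cuffnorm and Cufflinks 2.2.1, with build mm10. Scaling method and gene annotation: not given in the sources used here. Per the labels' protocols, cDNA of polyadenylated RNA went into a Nextera XT kit, which does not mark strand. Pparg, Cebpa and Plin4 share bases with an annotated gene on the opposite strand, whose reads cannot be told apart from theirs.

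One unnamed entry at 0 in all libraries was left out. The filter kept genes that reached 1 FPKM in 3 or more libraries. For these, limma 3.58.1 under R 4.3.3 fitted log2(FPKM + 1) over all 3 groups together, by lmFit and eBayes with its trend option. Calls are Benjamini-Hochberg adjusted p under 0.05. Coordinates are GENCODE's on GRCm38. The members and lists were chosen with earlier results of these data known. Named were the 10 genes and, of each list, up to 4 called genes with the smallest p per comparison, or all of 5 or fewer. Python 3.11.15 made the summaries.

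Alternatives were quantile normalization, equal sums per library (TPM scale), equal sums without 110 immunoglobulin genes, a pseudocount of 0.1, no filter, a mean of 5 FPKM or more, fits of the compared groups alone, healthy 1 and 3 apart, the same with a replicate block, and each library left out.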

Additional observations from a re-analysis of the deposited data

Results flagged for a closer look

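Within groups of 4 to 10 libraries, 17 sets of values on the log2(FPKM + 1) scale were checked for a library that stood apart, and 5 had one. Chance marks about 1 set in 20 where values are normally distributed. Sets in which all libraries but 1 are listed at 0 are always marked, so the 5 cannot be weighed against that rate. Pre-leukemic 1 held the highest Adipoq of its group, with a gap to the next library of 0.817 of the group's range, and the highest Fabp4, with a gap of 1.0 since the other 5 were listed at 0. Recovered 3 held the highest Cfd of the recovered libraries, and recovered 1 the highest Adig and the highest Pparg, each with a gap of 1.0 because the other 3 were at 0.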

How the results depend on the processing

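Of the values of the 10 genes under other settings, 603 kept their side of the threshold and did not turn, 21 lost a call, 11 gained one and 16 turned direction. The 603 include a change of 0 in recovered versus pre-leukemic for Cfd without recovered 3 and for Adig without recovered 1. For each turn the cause was not tested. Genes called higher in pre-leukemic versus healthy numbered 2, 0 on the TPM scale and 1 with a mean of at least 5 FPKM, which leaves Pparg, Cebpa and Plin4 untested. The 1 called lower in recovered versus pre-leukemic became 0 under that filter. With healthy 1 and 3 apart, 1 was higher and 1 lower in recovered versus healthy. Leaving out single libraries gave 0 to 2 higher and 3 to 6 lower in pre-leukemic versus healthy (the lowest of both without healthy 2), 5 to 6 higher and 1 to 1 lower in recovered versus pre-leukemic, and 0 to 1 higher and 0 to 1 lower in recovered versus healthy.

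Recovered versus healthy turned for Lpl with quantile normalization (-0.24), on the TPM scale (-0.16), without immunoglobulin genes (-0.16), without recovered 3 (-0.37) and without recovered 4 (-0.09), and for Cebpa on the TPM scale (-0.088), without immunoglobulin genes (-0.073), without recovered 2 (-0.16) and without recovered 3 (-0.18). It turned for Adipoq without recovered 2 (0.90), for Fabp4 without recovered 3 (0.13), and for Scd1 without healthy 2 (0.07), recovered 2 (0.0013) and recovered 3 (0.075). Over single libraries left out, these differences ran from -0.37 to 0.35 for Lpl, -0.18 to 0.50 for Cebpa, -0.95 to 0.90 for Adipoq, -1.01 to 0.13 for Fabp4 and -0.25 to 0.075 for Scd1. Recovered versus pre-leukemic turned on the TPM scale for Plin2 (1.0) and Scd2 (0.033).

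Scaling moved all genes together. On the TPM scale the median of all genes went from 0.20 to -1.08 in pre-leukemic versus healthy and from -0.41 to 0.58 in recovered versus pre-leukemic, and the share of higher among calls from 51.9 to 15.9% and from 37.1 to 75.7%. Quantile normalization moved the last to 50.2%. Over all genes, 1858 higher and 1725 lower in pre-leukemic versus healthy became 791 and 4200 on the TPM scale and 751 and 829 without healthy 2. In recovered versus pre-leukemic, 1945 and 3299 became 3768 and 1213 on the TPM scale. In recovered versus healthy, 68 and 261 became 48 and 401 on the TPM scale, 9 and 94 with only these groups, 231 and 536 with healthy 1 and 3 apart, 4 and 2 without healthy 2 and 183 and 496 without recovered 1. The 261 lower became 141 with quantile normalization, 76 with a mean of at least 5 FPKM and 146 or 147 without healthy 1 or 3, and the 68 higher became 45 without immunoglobulin genes and 44 without pre-leukemic 1 or 5.

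Replicate numbers did not pair the libraries: deviations of same-numbered libraries correlated by -0.02 to 0.03 over 10 pairs. With the replicate block 2 genes were higher and 5 lower in pre-leukemic versus healthy, Cfd being lost, and Scd1 in recovered versus healthy turned to 0.092. Depth limits low values: 3 reads on 1 kb were worth 0.493 to 1.93 FPKM. Scaled to transcript length, the healthy Pparg values above 0 stood for about 5.06 and 6.07 reads and those of Plin4 for about 3.81 to 12.4.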
